A study of Urosaurus graciosus
Urosaurus ornatus and Urosaurus graciosus and Urosaurus ornatus with 18 samples.

Results

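The genes described here encode the carriers of the mitochondrial inner membrane and the machinery that brings proteins into mitochondria. They were taken by symbol from a table of liver RNA counts: every gene whose symbol starts with SLC25A, with TOMM and a digit, or with TIMM and a digit, except TIMMDC1. That gave 67 of the 22773 genes in the table, of which 43 were SLC25A carriers, 10 were TOMM genes and 14 were TIMM genes. RNA was sequenced from the livers of 18 male lizards of the genus Urosaurus, 3 in each of 6 groups. Hybrids (Hy) were held at 40 °C (animals I, K and X) or 36 °C (A, B and D), U. graciosus (Ug) at 40 °C (P, Q and T) or 36 °C (J, R and S), and U. ornatus (Uo) at 40 °C (L, N and O) or 36 °C (E, F and H), in each case for 48 h. The series title describes the hybrids as carrying introgressed mitochondrial DNA. The labels give neither the ages of the animals nor the direction of the hybrid crosses, and hybrids were treated here as 1 lineage. Values of 3 animals are given below in the order of the letters above.

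Most SLC25A proteins move metabolites such as ADP and ATP, phosphate, dicarboxylates, amino acids and acylcarnitines across the inner mitochondrial membrane, which is otherwise closed to them. A few sit elsewhere, SLC25A46 in the outer membrane and SLC25A17 in peroxisomes. Like nearly every other mitochondrial protein, the carriers are encoded in the nucleus, made in the cytosol and imported. The TOM complex forms the gate of the outer membrane, the TIM23 complex threads proteins with a presequence into the matrix, and small TIM chaperones hand carriers to the TIM22 complex, which inserts them into the inner membrane. In liver these carriers link mitochondria to fat oxidation, gluconeogenesis and nitrogen disposal. The roles given below are those described in mammals and yeast.

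Libraries held 15780346 to 35002548 counts, and these genes took 0.273% to 0.590% of them. Levels are given as CPM, read counts scaled to a common library size with edgeR's TMM factors. Gene lengths were not used here, so levels are compared only between animals and not between genes. Of 16 hepatocyte marker genes, 12 were in the table, and their summed level was 34270.4 to 166006 CPM across the 18 libraries. CPS1, a urea cycle enzyme and one of these markers, was at 14.8 CPM in hybrid X and at 0 to 0.0921 CPM in the other 17 animals. Libraries X, T and O, all from 40 °C, were singled out. Each had the lowest mean correlation of log2 CPM with the other libraries of its group, which 1 library in any group of 3 must have. It was 0.881 for X against 0.926 and 0.926 for I and K, and 0.928 for O against 0.944 and 0.944 for L and N. For T it was 0.943 against 0.956 and 0.953 for P and Q, a value close to those of L and N. The TMM factors of X and O were 1.43 and 1.35, against 0.867 (in T) to 1.18 in the others. Some results in which these 3 libraries weigh heavily are given with and without them, which was decided after their values were seen. Others, such as the mean heat effects of SLC25A25, TIMM50 and TOMM7, are given only with them.

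Of the 67 genes, 65 passed a filter on low counts and were tested. SLC25A31, a testis form of the ADP/ATP carrier, and SLC25A45 had 22 counts each over all 18 libraries and were not tested. TIMM23 was not found under that symbol, although TIMM23B was. The steadiest tested genes were SLC25A46, TIMM17B and SLC25A51, whose SDs within groups were 0.12, 0.19 and 0.23 on the log2 scale. The most variable were SLC25A4, SLC25A16 and SLC25A25, at 1.42, 1.18 and 1.10. A principal component analysis of the tested genes did not scale them to equal spread, so variable genes weighed most. The largest weights on the first component were those of SLC25A4 (-0.40), SLC25A25 (0.34), TOMM20L (0.30, with 124 counts over all libraries) and SLC25A18 (0.28). This component held 33.2% of the variance and placed every U. ornatus liver at a score of 0.722 to 6.72. Hybrid scores ran from -4.34 to 2.27 and U. graciosus scores from -4.58 to 0.988. Only X among the hybrids and T among U. graciosus had a score above 0.

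**Figure D1:**
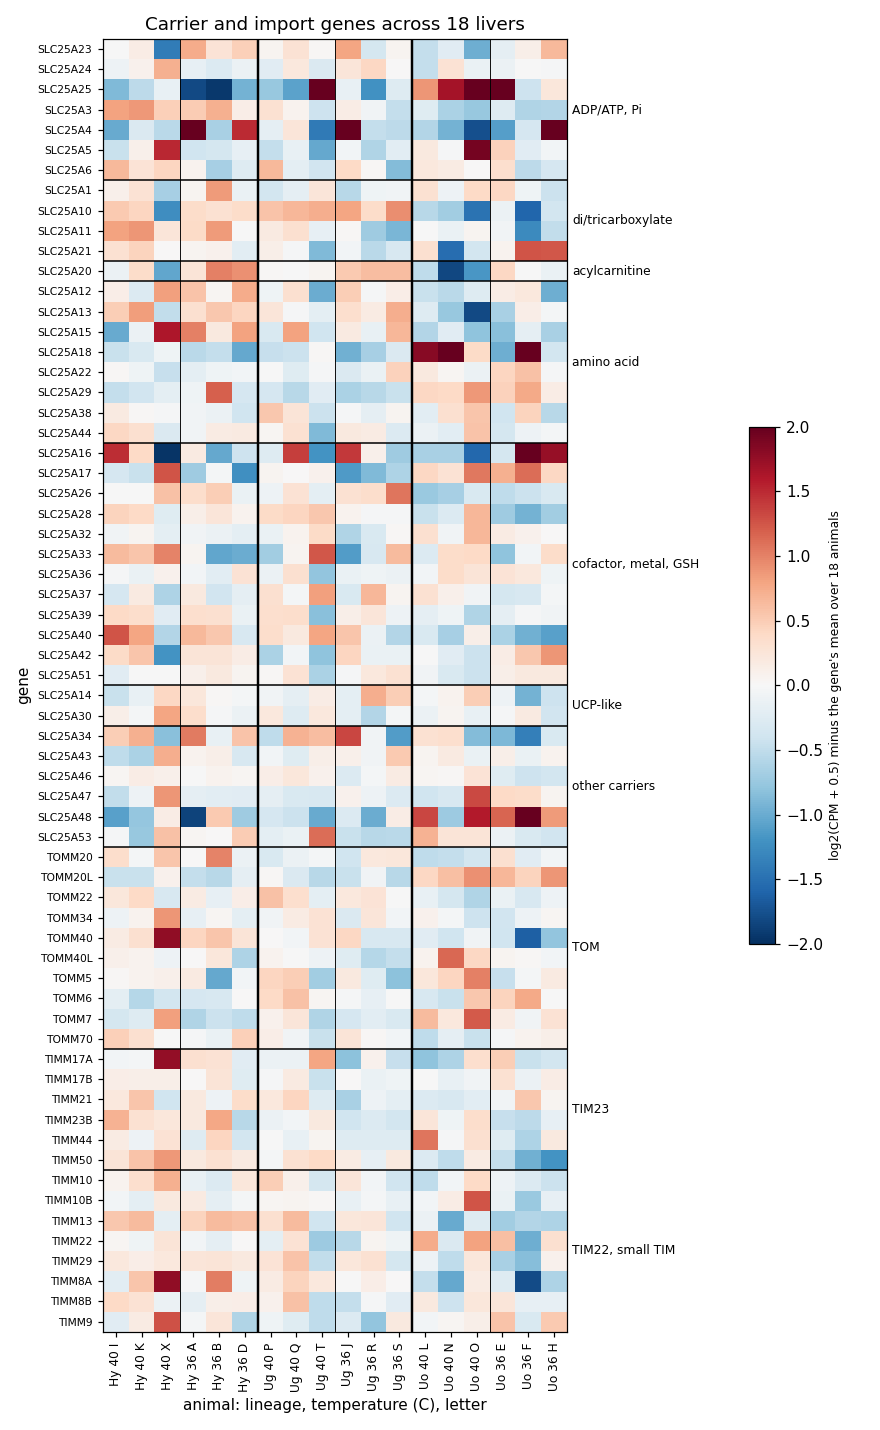
Heat map of the tested carrier and import genes reported here (rows, grouped by role) in 18 livers (columns, by lineage, temperature and animal letter). Colour gives log2(CPM + 0.5) minus the gene's mean over the 18 animals, with values beyond -2 and 2 in the end colours. U. ornatus livers on the right differ from the hybrid and U. graciosus livers in blocks of genes, and X, T and O show columns unlike their groups.

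The first comparison asked which of these genes differed in level between livers kept at 40 °C and at 36 °C. SLC25A20, the carnitine and acylcarnitine carrier that feeds long-chain fatty acids to oxidation in the matrix, fell at 40 °C. In hybrids it had 131, 185 and 69.4 CPM at 40 °C and 170.3, 287 and 268 CPM at 36 °C. In U. graciosus it had 146, 143 and 148 CPM at 40 °C and 206, 219 and 220.1 CPM at 36 °C. In U. ornatus it had 100.5, 40.0 and 63.3 CPM at 40 °C and 191, 142 and 130.0 CPM at 36 °C. Thus 8 of 9 animals at 40 °C lay below every 36 °C animal of their own lineage, the exception being hybrid K, while the groups of both parental species did not overlap. The heat effect averaged over the 3 lineages was -0.89 ± 0.20 on the log2 scale (± SE), with an adjusted p of 0.0493 by edgeR's quasi-likelihood test. It was the only one of the 65 genes called in this comparison, where 0.46% of all 15856 genes tested were called lower at 40 °C, 0.536% higher and 0.996% in either direction. At an unadjusted p under 0.05, 19 of the 65 passed, beside 17.9% of all genes.

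The call for SLC25A20 lay close to the threshold. It held in 2 of 18 fits that each left out 1 library, those without hybrid K at 40 °C (adjusted p = 0.0406) and without U. ornatus L at 40 °C (0.0375); leaving out any of the other 16 ended it, with an adjusted p of at most 0.101. Without X, T and O the difference was -0.78 ± 0.20 (adjusted p = 0.103). Hepatocyte markers also tended lower at 40 °C. For the mean heat effect 1 of the 11 tested had an estimate above 0, beside 53.8% of all genes. Within lineages 1 did in hybrids (53.3% of all genes), 4 in U. graciosus (50.2%) and 1 in U. ornatus (52.1%). None of the 11 was called. In edgeR 2 had an unadjusted p under 0.05 for the mean effect, beside 17.9% of all genes, and 2 in U. ornatus, beside 16.7%. Their summed level in U. ornatus was 40098 to 68437 CPM at 40 °C and 78366 to 117716 CPM at 36 °C, without overlap. Animal E, with the highest SLC25A20 of the U. ornatus animals, had the lowest sum at 36 °C. Hybrid X and U. graciosus Q each had both the lowest SLC25A20 and the lowest sum of their lineage. In U. ornatus N was lowest for SLC25A20 and O for the sum. In hybrids that sum was 34270.4 to 141630.2 CPM at 40 °C and 101594 to 166006 CPM at 36 °C, and in U. graciosus it was 76435 to 155302 CPM at 40 °C and 123987 to 149489 CPM at 36 °C. Their part in the result was not tested, and in whole tissue fewer cells of a type and less RNA per cell cannot be told apart. CPT1A and CPT2, which make and split acylcarnitines on either side of this carrier, did not pass the threshold, with heat effects of -0.24 ± 0.32 (adjusted p = 0.736) and -0.16 ± 0.12 (adjusted p = 0.521).

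**Figure D2:**
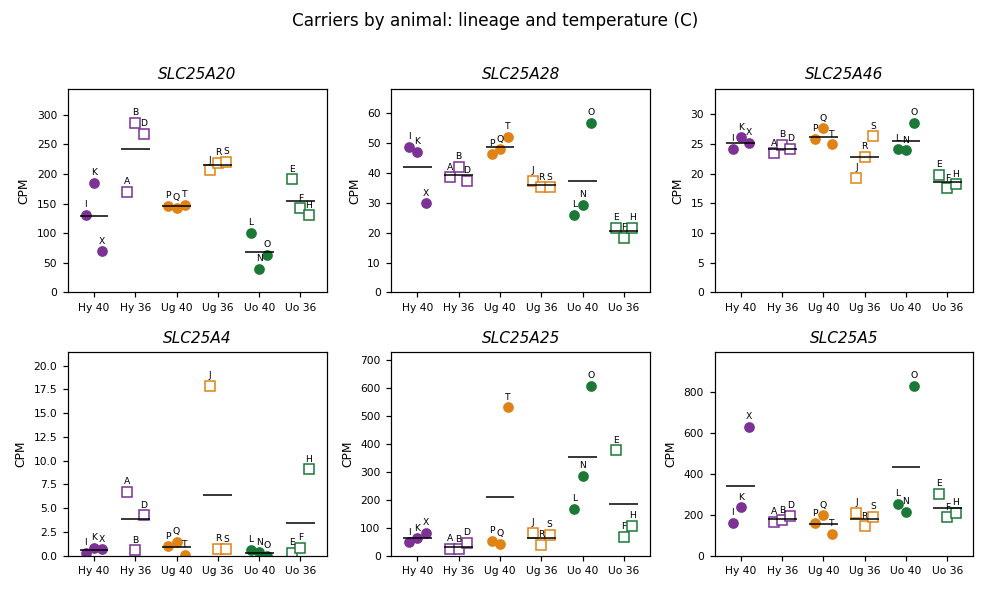
CPM of 6 carriers in each animal, by group (filled circles 40 °C, open squares 36 °C; letters name the animals; black lines are means of 3). SLC25A20 is lower at 40 °C in every lineage with hybrid K overlapping the 36 °C hybrids. SLC25A4 and SLC25A5 are set by a few high animals, as is SLC25A25 in the parental species but not in hybrids.

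No other carrier was called for heat by edgeR. Of the 41 SLC25A genes tested, 23 had a mean heat effect above 0 and their median was 0.048, beside a median of 0.030 over all genes tested, of which 53.8% were above 0. SLC25A28, the iron importer mitoferrin 2, had 26.0, 29.3 and 56.8 CPM at 40 °C and 21.6, 18.3 and 21.7 CPM at 36 °C in U. ornatus. The groups did not overlap, and O was far above the rest. In U. graciosus SLC25A28 had 46.4, 47.9 and 51.9 CPM at 40 °C and 37.3, 35.1 and 35.1 CPM at 36 °C, also without overlap, and in hybrids 48.7, 47.0 and 29.8 CPM at 40 °C and 38.4, 42.0 and 37.4 CPM at 36 °C, where X was the lowest of 6. In all, 8 of 9 heated animals lay above every 36 °C animal of their lineage, but the mean effect of 0.47 ± 0.14 missed the threshold (adjusted p = 0.122). DESeq2 called it, together with SLC25A20, SLC25A46 and SLC25A4, and limma's voom fit called SLC25A20, SLC25A28 and SLC25A11.

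SLC25A4, the ADP/ATP carrier form of heart and skeletal muscle, was high in 4 animals at 36 °C and low in the other 14. It had at most 1.503 CPM at 40 °C, in U. graciosus Q. At 36 °C it reached 6.72 and 4.25 CPM in hybrids A and D, 17.9 CPM in U. graciosus J and 9.11 CPM in U. ornatus H, and at most 0.829 CPM in the other 5. The mean heat effect was -2.92 ± 0.84 (adjusted p = 0.109), so it was not called. The summed level of 11 skeletal muscle markers was 31.0 CPM in A, 155 CPM in D, 38.6 CPM in J and 34.2 CPM in H, within a range of 17.5 to 155 CPM over all 18 libraries. D had the highest sum of the 18. O and X came next at 112 and 93.5 CPM, with SLC25A4 at 0 and 0.664 CPM. Their sums were mostly DES, at 55.0 CPM in O and 85.6 CPM in X, and RYR1, at 40.6 CPM in O. Another of the markers, CKM, was at 31.7 CPM in D and at most 0.247 CPM in A, J, H, O and X. The part of muscle tissue in the SLC25A4 levels was not tested.

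SLC25A5 and SLC25A6, further forms of the ADP/ATP carrier, were not called either. SLC25A5 had 163, 237 and 631 CPM in hybrids at 40 °C and 167, 174 and 197 CPM at 36 °C, and 254, 217 and 831 CPM in U. ornatus at 40 °C and 304, 188 and 212 CPM at 36 °C. X and O stood far above every other animal, whose levels overlapped between temperatures. The mean heat effect on SLC25A5 was 0.53 ± 0.29 (adjusted p = 0.355), and without X, T and O it was 0.041 ± 0.15. SLC25A6 had 986, 764 and 855 CPM in hybrids at 40 °C and 666, 399 and 529 CPM at 36 °C, with no overlap, but its mean effect over the lineages was 0.38 ± 0.21 (adjusted p = 0.356). These related genes may share reads, and the treatment of reads with several matches is not given, so their split is uncertain. Their sequences were not compared here. SLC25A25, a calcium-gated carrier of ATP-Mg against phosphate, had 53.4, 43.1 and 532 CPM in U. graciosus at 40 °C and 81.5, 38.9 and 76.0 CPM at 36 °C, and 167, 288 and 609 CPM in U. ornatus at 40 °C and 378, 68.3 and 106 CPM at 36 °C. In hybrids SLC25A25 had 48.8, 63.0 and 82.1 CPM at 40 °C and 25.7, 23.4 and 46.8 CPM at 36 °C, without overlap. T and O at 40 °C and E at 36 °C were high, and the mean heat effect of 1.21 ± 0.48 was not called (adjusted p = 0.201).

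Carriers of central liver metabolism gave no call for heat. SLC25A1, the citrate carrier that exports carbon for fat synthesis, had a mean effect of -0.0034 ± 0.19. SLC25A10, the dicarboxylate carrier, had -0.20 ± 0.24, SLC25A13, the aspartate and glutamate carrier citrin, had -0.38 ± 0.21, and SLC25A15, the ornithine carrier of the urea cycle, had -0.085 ± 0.32. Their adjusted p-values were between 0.373 and 0.9999. SLC25A47, described as a liver carrier in mice and humans, was at most 1.26 CPM in these livers, in O. A level of 0.804 CPM in X was the next highest, and hybrid I had 0 CPM.

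Averaged over the 3 lineages, most genes of the import machinery had an estimate above 0 for heat, but none was called. Of 14 TIMM genes, 12 had a mean heat effect above 0, with a median of 0.27. Of 10 TOMM genes, 7 did, with a median of 0.30. Over all genes tested 53.8% were above 0, with a median of 0.030. In U. ornatus alone 5 TOMM genes were above 0, with a median of -0.0028, and 10 TIMM genes, with a median of 0.32, beside 52.1% of all genes. In hybrids 8 TOMM and 11 TIMM genes were above 0, beside 53.3% of all genes. In U. graciosus 8 and 12 were, beside 50.2%. All these counts include X, T and O. For the mean effect, 3 of the TIMM and 3 of the TOMM genes had an unadjusted p under 0.05 in edgeR, beside 17.9% of all genes, and neither DESeq2 nor voom called any at an adjusted p under 0.05. TIMM50, the receptor of the TIM23 complex, had 27.7, 34.4 and 42.6 CPM in hybrids at 40 °C and 26.5, 28.7 and 26.2 CPM at 36 °C, 22.4, 28.6 and 30.4 CPM in U. graciosus at 40 °C and 25.9, 20.6 and 26.5 CPM at 36 °C, and 18.9, 16.0 and 25.9 CPM in U. ornatus at 40 °C and 16.3, 11.6 and 9.73 CPM at 36 °C. Its mean effect was 0.40 ± 0.13 (adjusted p = 0.146), and the temperatures overlapped in all 3 lineages. TOMM7, a small subunit that tunes the stability of the TOM complex, had a mean effect of 0.53 ± 0.19 (adjusted p = 0.163), with 7 of 9 heated animals above all of their 36 °C relatives. TIMM44, which anchors the import motor, had 0.37 ± 0.16 (adjusted p = 0.248). The receptors TOMM20 and TOMM70 had -0.25 ± 0.16 and -0.16 ± 0.13, and the carrier insertion channel TIMM22 had 0.25 ± 0.34, none of them called.

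Within a lineage, edgeR called none of the 65 genes for heat. In hybrids, where 0% of all genes were called, 6 of these genes had an unadjusted p under 0.05, beside 7.81% of all genes. The smallest p-values were those of SLC25A20 at -0.91 ± 0.35 (adjusted p = 0.577), SLC25A33, a pyrimidine nucleotide carrier, at 1.37 ± 0.53 (0.579), and SLC25A29, a carrier of basic amino acids, at -0.78 ± 0.31 (0.606). SLC25A33 had 14.0, 13.3 and 18.1 CPM in heated hybrids and 9.22, 4.05 and 4.20 CPM in hybrids at 36 °C, with no overlap. SLC25A29 had 50.2, 53.7 and 61.6 CPM in heated hybrids and 66.0, 162 and 55.5 CPM in hybrids at 36 °C, where B was far above the rest. Without B its difference was -0.14 ± 0.22, and without X that of SLC25A20 was -0.61 ± 0.33. In U. graciosus, where 0% of all genes were called, 3 genes had an unadjusted p under 0.05, beside 6.1% of all genes. They were SLC25A53, a carrier with no assigned substrate, at 2.60 ± 1.04 (adjusted p = 0.754), SLC25A17, a cofactor carrier of peroxisomes, at 0.96 ± 0.42 (0.788), and SLC25A26, the S-adenosylmethionine carrier, at -0.64 ± 0.29 (0.788). SLC25A17 had 11.9, 11.5 and 12.1 CPM at 40 °C and 4.94, 5.99 and 7.26 CPM at 36 °C in U. graciosus, without overlap. The difference of SLC25A53 was 1.40 ± 1.07 without T, and that of SLC25A26 was -0.34 ± 0.29 without S. DESeq2 and voom called none in either lineage.

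In U. ornatus, where 0.782% of all genes were called, 14 of these genes had an unadjusted p under 0.05, beside 16.7% of all genes. SLC25A28 led with 0.86 ± 0.25 (adjusted p = 0.115), then SLC25A20 with -1.19 ± 0.35 (0.118) and SLC25A46, an outer membrane protein that shapes mitochondria, with 0.46 ± 0.15 (0.140). The difference of SLC25A28 was 0.42 ± 0.20 (0.425) without O. SLC25A46 had 24.1, 23.9 and 28.6 CPM at 40 °C and 19.8, 17.6 and 18.2 CPM at 36 °C, and the groups did not overlap. DESeq2 called these 3 genes together with SLC25A16 and SLC25A21, and voom called none.

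Whether the heat effect differed between lineages was tested as a difference of heat effects, and no carrier or import gene was called by edgeR, DESeq2 or voom. For hybrids against U. graciosus, 0% of all genes were called, and 3 of the 65 had an unadjusted p under 0.05, beside 3.44% of all genes: SLC25A24, another ATP-Mg carrier, at 0.80 ± 0.35, SLC25A29 at -0.95 ± 0.44 and SLC25A53 at -2.95 ± 1.38, with an adjusted p of 1.0 each. Leaving out 1 library gave 0.53 ± 0.32 for SLC25A24 without X, -0.31 ± 0.29 for SLC25A29 without B, and -1.76 ± 1.38 for SLC25A53 without T. For hybrids against U. ornatus, 0% of all genes were called and 3 of the 65 had an unadjusted p under 0.05, beside 9.64% of all genes. SLC25A16, a carrier linked to coenzyme A, had a difference of 3.30 ± 1.18 (adjusted p = 0.407). It had 67.4, 31.8 and 5.73 CPM in hybrids at 40 °C and 27.2, 11.4 and 17.7 CPM at 36 °C, and 15.1, 15.1 and 7.72 CPM in U. ornatus at 40 °C and 18.6, 101 and 80.6 CPM at 36 °C. Levels of SLC25A16 were wide within groups, with F and H the highest of the 6 U. ornatus animals. SLC25A21, the oxoadipate carrier, had a difference of 1.69 ± 0.63 (0.428), and SLC25A28 had -0.77 ± 0.35 (0.510), or -0.33 ± 0.27 without U. ornatus O.

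For U. graciosus against U. ornatus, 0.00631% of all genes were called and 4 of the 65 had an unadjusted p under 0.05, beside 7.46% of all genes. The smallest p-values were those of SLC25A14, a relative of the uncoupling proteins, at -1.12 ± 0.43 (adjusted p = 0.607), TIMM21, which ties the TIM23 complex to the assembly of the respiratory chain, at 0.94 ± 0.36 (0.608), and TOMM6, a small TOM subunit, at 0.88 ± 0.37 (0.623). SLC25A14 had 8.61, 7.92 and 10.1 CPM at 40 °C and 7.86, 15.4 and 13.01 CPM at 36 °C in U. graciosus, which overlapped. In U. ornatus it had 8.83, 9.50 and 12.9 CPM at 40 °C and 8.38, 4.47 and 6.70 CPM at 36 °C, with no overlap. TIMM21 had 36.6, 42.7 and 26.1 CPM at 40 °C and 19.8, 29.4 and 27.3 CPM at 36 °C in U. graciosus, against 25.9, 25.2 and 27.2 CPM at 40 °C and 30.1, 45.9 and 32.7 CPM at 36 °C in U. ornatus, where F was far above the others and the temperatures did not overlap.

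The lineage comparisons asked how hybrids differed from each parental species, with both temperatures averaged. Reads of all 3 lineages were aligned, per the series' design text, to a Sceloporus undulatus genome, which belongs to a different lizard genus, so a lineage difference could also come from how well reads of each lineage align. Its part was not tested. Between hybrids and U. ornatus, 22 of the 65 genes were called, 15 higher and 7 lower in hybrids. Over all genes tested 35.2% were called, 18.2% higher and 16.9% lower, and the share among these genes was 33.8%, near that background. At an unadjusted p under 0.05, 28 of the 65 passed, beside 45.1% of all genes. Levels below are given as the lowest, median and highest of 6 animals.

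SLC25A3, the phosphate carrier that supplies ATP synthase, was higher in hybrids. It had 401, 556 and 662 CPM in hybrids and 216, 241 and 307 CPM in U. ornatus, and the lineages did not overlap. The difference was 1.10 ± 0.19 (adjusted p = 0.000459). SLC25A15 had 2.38, 7.87 and 17.2 CPM in hybrids and 2.75, 3.26 and 4.61 CPM in U. ornatus. X was the highest hybrid, and I lay below all 6 U. ornatus animals while the other 5 lay above them. The difference of 1.28 ± 0.40 (0.0216) lost its call without hybrid X (0.70, adjusted p = 0.0786), without U. ornatus E at 36 °C (0.0507), and without X, T and O together (0.63 ± 0.31, adjusted p = 0.121). SLC25A40, a mitochondrial glutathione importer, was called at 2.51 ± 0.70 (0.0114) from a mean level under 1 CPM. It had 163 counts in total over the 6 hybrids and 34 over the 6 U. ornatus.

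Of the 4 di- and tricarboxylate carriers tested, 2 were called higher in hybrids, SLC25A10 and SLC25A11. Of 8 tested carriers of amino acids and the urea cycle, 2 were called higher, SLC25A13 and SLC25A15, and 1 was called lower, SLC25A18. The calls made up 50% and 37.5% of these 2 lists, beside 35.2% of all genes tested. SLC25A13 was at 106, 206 and 269.7 CPM in hybrids and 42.5, 111 and 165 CPM in U. ornatus, with every hybrid but X above every U. ornatus animal, a difference of 0.88 ± 0.26 (0.0166). SLC25A10 was at 49.3, 151 and 169 CPM in hybrids and 38.5, 75.6 and 108 CPM in U. ornatus, a difference of 0.94 ± 0.29 (0.0206), and its lowest hybrid was X, inside the U. ornatus range. SLC25A11, the oxoglutarate and malate carrier that pairs with SLC25A13 in the malate-aspartate shuttle, was at 46.7, 72.2 and 87.6 CPM in hybrids and 19.1, 44.0 and 49.2 CPM in U. ornatus, a difference of 0.85 ± 0.22 (0.00878), with 5 of 6 hybrids above every U. ornatus animal. SLC25A20 (0.78 ± 0.25, adjusted p = 0.0222), SLC25A26 (0.79 ± 0.20, 0.00772) and SLC25A28 (0.55 ± 0.18, 0.0245) were also called higher. SLC25A26 did not overlap between the lineages, while SLC25A20 and SLC25A28 did. Calls were lost for SLC25A10 without hybrid I (adjusted p = 0.0544), for SLC25A20 without hybrid K or B, or U. ornatus N or H (up to 0.0672), and for SLC25A28 without hybrid I or K, or U. ornatus L, N or F (up to 0.0652). Without X, T and O the difference of SLC25A28 was 0.87 ± 0.10 (5.15e-05). The citrate carrier SLC25A1 was at 228, 382 and 658 CPM in hybrids and 271, 394 and 482 CPM in U. ornatus, with a difference of 0.030 ± 0.23 (0.936).

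Carriers called lower in hybrids were SLC25A18, SLC25A25, SLC25A48 and SLC25A17. SLC25A25 had 23.4, 47.8 and 82.1 CPM in hybrids and 68.3, 228 and 609 CPM in U. ornatus, with 5 of 6 hybrids below every U. ornatus animal, a difference of -2.49 ± 0.61 (0.00544). SLC25A18, a glutamate carrier, had 0.253, 0.618 and 0.944 CPM in hybrids and 0.284, 3.22 and 8.99 CPM in U. ornatus. The U. ornatus animals were split, with L, N and F high and E and H inside the hybrid range, and the difference was -2.54 ± 0.64 (0.00631), or -1.39 ± 0.47 (0.0359) without F. SLC25A48, linked to choline import in mammals, had 1.27, 3.30 and 8.63 CPM in hybrids and 3.34, 14.6 and 33.2 CPM in U. ornatus, overlapping, a difference of -1.86 ± 0.49 (0.00847). SLC25A17 had 4.61, 8.63 and 28.0 CPM in hybrids and 14.1, 17.2 and 25.2 CPM in U. ornatus, with hybrid X above all U. ornatus animals and the other 5 hybrids below them. Its difference of -0.82 ± 0.30 (0.0416) held in 8 of 18 fits that left out 1 library and was -1.08 ± 0.23 (0.00254) without X, T and O. It was lost without hybrid I, K, A or D, U. graciosus P, Q or R, or U. ornatus O, E or F, with an adjusted p of up to 0.0981. The ADP/ATP carriers SLC25A5 and SLC25A6 were not called, at -0.36 ± 0.36 (0.456) and 0.10 ± 0.25 (0.785).

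**Figure D3:**
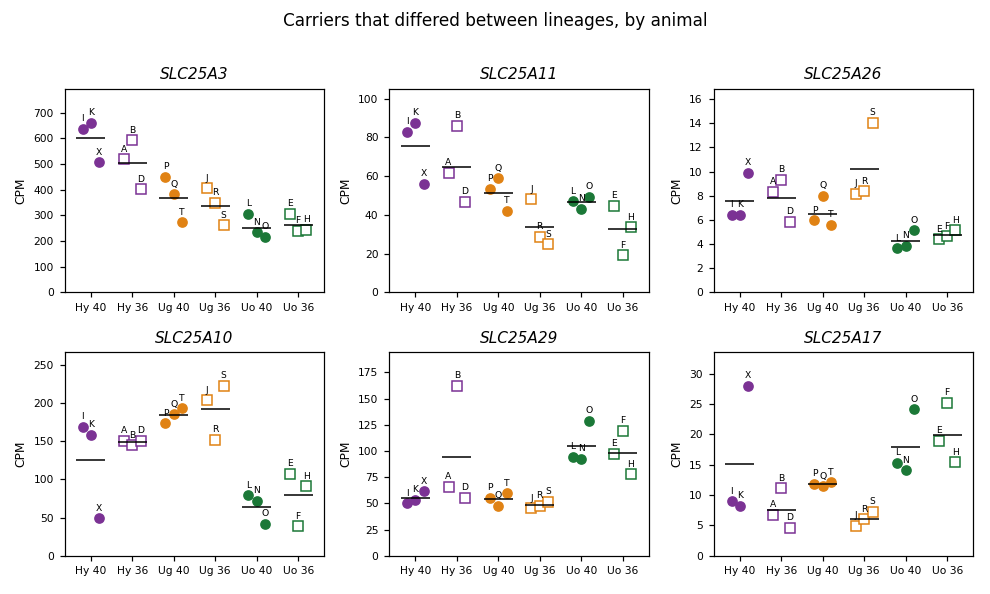
CPM of 6 carriers in each animal, by group (filled circles 40 °C, open squares 36 °C; letters name the animals; black lines are means of 3). SLC25A3 and SLC25A26 do not overlap between hybrids and U. ornatus, and SLC25A29 and SLC25A17 do not overlap between U. graciosus and U. ornatus.

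Of the 10 TOMM genes 2 were called higher and 3 lower in hybrids than in U. ornatus, and of the 14 TIMM genes 3 were called higher and none lower. Those were 50% and 21.4% of them, beside 35.2% of all genes tested (18.2% higher and 16.9% lower). TOMM40, the protein channel of the outer membrane, had 7.94, 9.32 and 25.3 CPM in hybrids and 1.94, 5.21 and 6.69 CPM in U. ornatus. Every hybrid lay above every U. ornatus animal, with X far above the other hybrids, and the difference was 1.31 ± 0.30 (adjusted p = 0.00337) with X, T and O and 0.99 ± 0.25 (0.00796) without them. TIMM50 had 26.2, 28.2 and 42.6 CPM in hybrids and 9.73, 16.2 and 25.9 CPM in U. ornatus, without overlap, a difference of 0.95 ± 0.17 (0.000563). TIMM13 and TIMM8A, small chaperones that work as a pair in the intermembrane space, were both called higher. TIMM13 had 13.3, 22.7 and 23.9 CPM in hybrids and 7.36, 9.92 and 14.0 CPM in U. ornatus, a difference of 1.02 ± 0.21 (0.00205), and X was its lowest hybrid. TIMM8A had 10.9, 15.7 and 44.6 CPM in hybrids and 3.32, 8.50 and 14.2 CPM in U. ornatus, a difference of 1.28 ± 0.35 (0.0101), with X its highest and the lineages overlapping. TOMM20, a receptor for presequences, had 44.4, 55.1 and 95.8 CPM in hybrids and 33.7, 39.0 and 60.1 CPM in U. ornatus, overlapping, with a difference of 0.56 ± 0.19 (0.0336) that was 0.52 ± 0.22 (0.0814) without X, T and O. Its call was also lost without hybrid I, X or B, or U. ornatus L, N, F or H (up to 0.108), with a difference of 0.35 ± 0.16 without B.

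TOMM6 and TOMM7 were called lower in hybrids close to the threshold. TOMM6 had 19.1, 22.6 and 28.6 CPM in hybrids and 20.8, 33.7 and 48.6 CPM in U. ornatus, a difference of -0.51 ± 0.18 (0.0418), and it was called in 7 of 18 fits that left out 1 library. Its call was lost without hybrid K, X, A or B, U. graciosus P, J, R or S, or U. ornatus O, E or F, with an adjusted p of up to 0.142, and its difference was -0.31 ± 0.16 without O. TOMM7 had 7.98, 9.37 and 22.4 CPM in hybrids and 11.8, 14.9 and 29.8 CPM in U. ornatus, with 5 of 6 hybrids below every U. ornatus animal and X above all of them but O. Its difference was -0.63 ± 0.23 (0.0431), and it was called in 5 of 18 such fits and lost without hybrid I, K, A, B or D, U. graciosus P, J, R or S, or U. ornatus L, O, E or H, with an adjusted p of up to 0.124. Without X, T and O together TOMM7 was at -0.72 ± 0.14 (0.00125), while TOMM6 was at -0.32 ± 0.15 (0.121). TOMM20L, a relative of TOMM20, was also called lower at -2.94 ± 0.81 (0.0107) from a mean level under 1 CPM, with 14 counts in total over the 6 hybrids and 97 over the 6 U. ornatus. The receptor TOMM70 (0.37 ± 0.16, 0.0769), the motor anchor TIMM44 (-0.12 ± 0.20, 0.666) and the channel TIMM22 (-0.41 ± 0.41, 0.461) were not called.

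**Figure D4:**
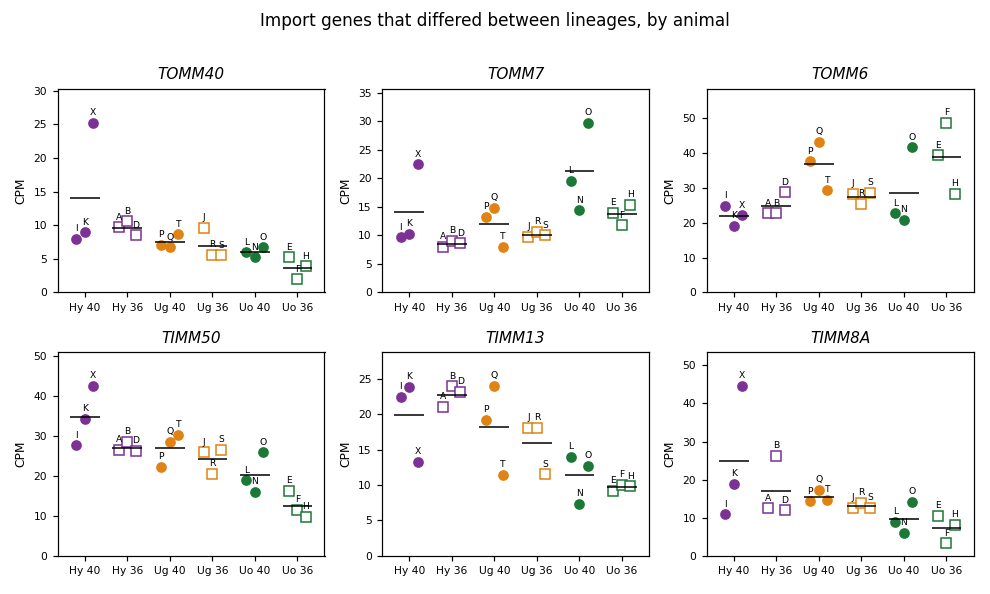
CPM of 6 import genes in each animal, by group (filled circles 40 °C, open squares 36 °C; letters name the animals; black lines are means of 3). TOMM40 and TIMM50 are higher in every hybrid than in every U. ornatus animal, and hybrid X is the highest or lowest hybrid for TOMM40, TOMM7, TIMM50, TIMM13 and TIMM8A.

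Between the parental species, 16 of the 65 genes were called, 9 higher and 7 lower in U. graciosus than in U. ornatus. That was 24.6% of them, beside 32.2% of all genes tested (16% higher and 16.1% lower). At an unadjusted p under 0.05, 20 of the 65 passed, beside 42.9% of all genes. SLC25A10 was at 152, 189 and 223 CPM in U. graciosus and 38.5, 75.6 and 108 CPM in U. ornatus, without overlap, a difference of 1.40 ± 0.29 (adjusted p = 0.00227). SLC25A26, at 5.60, 8.07 and 14.1 CPM in U. graciosus and 3.66, 4.53 and 5.15 CPM in U. ornatus, did not overlap either and differed by 0.87 ± 0.20 (0.00477). Less separated were TIMM50 (0.69 ± 0.17, adjusted p = 0.00541), SLC25A28 (0.59 ± 0.18, 0.0180), SLC25A20 (0.79 ± 0.25, 0.0231) and TIMM13 (0.70 ± 0.21, 0.0200), in each of which some animals overlapped. TOMM22, the central receptor of the TOM complex (0.49 ± 0.17, 0.0321), and SLC25A40 (2.08 ± 0.70, 0.0326) were also called higher. SLC25A20 lost its call without U. ornatus N, F or H (adjusted p up to 0.0570), and TIMM13 without U. graciosus Q or R, or U. ornatus N (up to 0.0613). TOMM22 lost it without U. graciosus P, Q, J or R, or U. ornatus N, O, E or F (up to 0.0894), and SLC25A40 without U. graciosus T or J, or U. ornatus L, N, F or H (up to 0.0934).

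SLC25A29 and SLC25A17 were lower in every U. graciosus animal than in every U. ornatus animal. SLC25A29 had 45.3, 49.5 and 59.7 CPM in U. graciosus and 77.8, 95.7 and 129 CPM in U. ornatus, a difference of -0.99 ± 0.22 (0.00359). SLC25A17 had 4.94, 9.37 and 12.1 CPM in U. graciosus and 14.1, 17.2 and 25.2 CPM in U. ornatus, a difference of -1.15 ± 0.30 (0.00861). SLC25A18 (-2.50 ± 0.64, 0.00783) and SLC25A48 (-1.87 ± 0.49, 0.00921) were called lower with overlap between the species, SLC25A18 at -1.35 ± 0.47 (0.0441) without U. ornatus F. In the TOM complex TOMM40L, TOMM7 and TOMM20L (-2.72 ± 0.80, 0.0170) were called lower. TOMM40L, a relative of the channel TOMM40, had 13.7, 18.3 and 21.7 CPM in U. graciosus and 19.9, 21.5 and 46.4 CPM in U. ornatus, with N the highest, and its difference of -0.54 ± 0.18 (0.0305) was lost without U. graciosus Q, T, R or S, or U. ornatus N, E or F (up to 0.0997), with -0.35 ± 0.15 without N. TOMM7 at -0.63 ± 0.23 (0.0489) was called in 5 of 18 fits that left out 1 library, lost without hybrid A, B or D, U. graciosus P, T, J, R or S, or U. ornatus L, O, E, F or H (up to 0.135), and was -0.35 ± 0.13 (0.0584) without X, T and O. Macrophage markers moved with this comparison: 7 of 8 in the table were called lower in U. graciosus, beside 16.1% of all genes. Their summed levels were 273 to 364 CPM at 40 °C and 433 to 464 CPM at 36 °C, against 432 to 1205 and 543 to 868 CPM in U. ornatus. Of 11 hepatocyte markers tested, 2 were called higher in U. graciosus, beside 16% of all genes. Their summed level was 76435 to 155302 CPM at 40 °C and 123987 to 149489 CPM at 36 °C in U. graciosus. In U. ornatus it was 40098 to 68437 and 78366 to 117716 CPM, without overlap at either temperature. Between hybrids and U. ornatus 1 of 8 macrophage and 0 of 11 hepatocyte markers were called, beside 35.2% of all genes. In that comparison 7 of 8 macrophage markers had an estimate below 0 and 9 of 11 hepatocyte markers had 1 above 0. Of all genes, 51.1% were above 0. The part of either cell type in the lineage results was not tested.

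Between hybrids and U. graciosus edgeR called none of these genes, where 1.82% of all genes were called and 9 of the 65 had an unadjusted p under 0.05, beside 15.9% of all genes. SLC25A3 had 401, 556 and 662 CPM in hybrids and 261, 366 and 451 CPM in U. graciosus, and 5 of 6 hybrids lay above every U. graciosus animal. The difference was 0.64 ± 0.19 (adjusted p = 0.0979). SLC25A11 had 46.7, 72.2 and 87.6 CPM in hybrids and 24.9, 45.0 and 58.9 CPM in U. graciosus, a difference of 0.74 ± 0.22 (0.112). DESeq2 and voom each called these 2 genes. All 14 TIMM genes had an estimate above 0, with a median of 0.24, beside 53.3% of all genes above 0 and a median of 0.031. Only 1 of the 14 had an unadjusted p under 0.05 in edgeR. These estimates include X, T and O. Over all 65 genes 41 were above 0, with a median of 0.13. Without X, T and O 36 of 64 were, with a median of 0.066, beside 0.0033 over all genes. A count for the TIMM genes alone is not given for that fit. Hybrid X was the highest hybrid for TIMM17A, TIMM8A, TIMM9 and TIMM50, among others, and the lowest for TIMM13 and TIMM21. The TIMM gene with the smallest p was TIMM23B at 0.50 ± 0.19 (0.206). A p that misses the threshold does not show that the lineages were alike: the SEs of the 65 estimates had a median of 0.23 on the log2 scale.

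Set against the mean of both parents on the log2 scale, hybrids had 7 of the 65 genes called, 6 higher and 1 lower, which was 10.8% of them beside 16.3% of all genes (9.78% higher and 6.55% lower). At an unadjusted p under 0.05, 18 of the 65 passed, beside 32.1% of all genes. SLC25A3 differed by 0.87 ± 0.16 (adjusted p = 0.00199), TIMM50 by 0.60 ± 0.14 (0.00937) and SLC25A11 by 0.80 ± 0.19 (0.0107). TOMM40 differed by 1.002 ± 0.24 (0.0126), or by 0.69 ± 0.21 (0.0381) without X, T and O and 0.64 ± 0.20 (0.0378) without X. These 4 calls held in all 18 fits that left out 1 library. TIMM13 at 0.67 ± 0.18 (0.0201) lost its call without hybrid K (0.0538). TIMM8A at 0.91 ± 0.29 (0.0430) kept its call in 5 of the 18 fits and lost it without hybrid X, A or B, U. graciosus P, Q, T, J, R or S, or U. ornatus L, N, F or H, with an adjusted p of up to 0.161. It was at 0.55 ± 0.26 without X and at 0.63 ± 0.26 (0.112) without X, T and O. SLC25A25, at -1.93 ± 0.55 (0.0270), lost its call without hybrid I, K, A or B (up to 0.0705). The comparisons with U. graciosus, U. ornatus and their mean share the same 6 hybrids. A call against the parental mean can arise where hybrids match 1 parent and the other differs. EdgeR called none of these 7 genes between hybrids and U. graciosus.

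**Figure D5:**
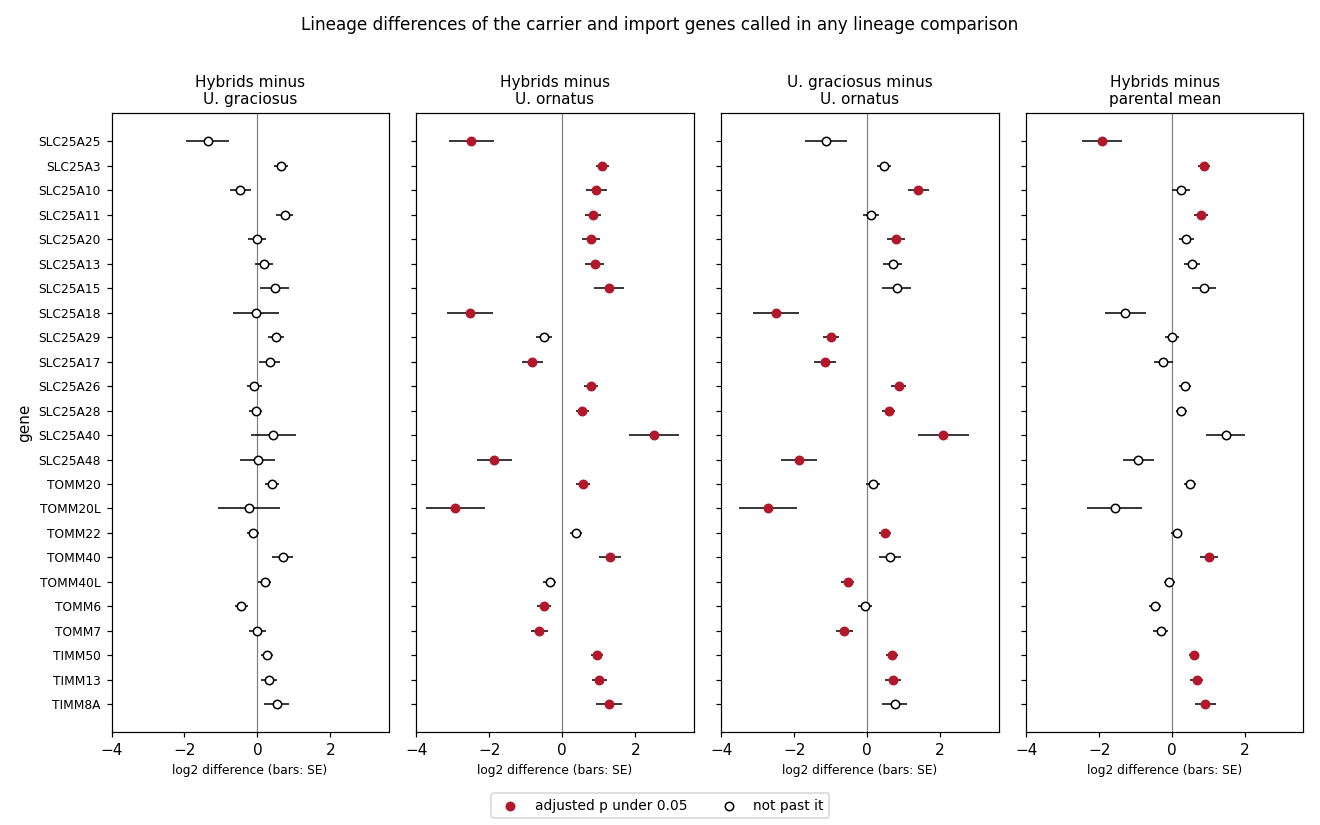
Log2 differences (points, with SE as bars) of the carrier and import genes reported here that were called in any of 4 lineage comparisons: hybrids minus U. graciosus, hybrids minus U. ornatus, U. graciosus minus U. ornatus, and hybrids minus the parental mean. Filled red points passed an adjusted p of 0.05, as no gene did between hybrids and U. graciosus.

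The lineage differences were also taken at 1 temperature at a time from the fit to all 18 libraries, comparing 3 animals of each lineage. Between hybrids and U. ornatus, 6 genes were called at 40 °C (5 higher, 1 lower) and 10 at 36 °C (8 higher, 2 lower), and 18.4% of all genes were called at each temperature. SLC25A3, TIMM50 and TOMM40 were among those called at both. SLC25A3 differed by 1.25 ± 0.27 at 40 °C and 0.94 ± 0.26 at 36 °C. TIMM50 differed by 0.78 ± 0.23 at 40 °C and 1.11 ± 0.24 at 36 °C, and TOMM40 by 1.24 ± 0.42 at 40 °C and 1.38 ± 0.42 at 36 °C. Between U. graciosus and U. ornatus 3 genes were called at 40 °C, beside 15.9% of all genes, and 7 at 36 °C, beside 14.8%, with SLC25A10 (1.52 ± 0.42 at 40 °C and 1.28 ± 0.41 at 36 °C) called in both. SLC25A17 was called lower in U. graciosus at 36 °C (-1.71 ± 0.43, adjusted p = 0.0156) and not at 40 °C (-0.59 ± 0.42, 0.354). SLC25A20 was called higher at 40 °C (1.10 ± 0.35, 0.0441) and not at 36 °C (0.48 ± 0.35, 0.376). The test of the difference between temperatures gave no call for either gene: SLC25A17 was at 1.12 ± 0.59 (0.698) and SLC25A20 at 0.62 ± 0.49 (0.820). Against the parental mean, SLC25A3 was the 1 gene called at 40 °C (0.98 ± 0.22, 0.0216), beside 5.51% of all genes. None was called at 36 °C, beside 4.04% of all genes, and SLC25A3 differed there by 0.76 ± 0.22 (0.0652).

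Other genes of import and transport were examined for context. Of 21 tested genes for import, sorting and processing, 6 were called higher and 3 lower in hybrids than in U. ornatus, and 3 higher and 3 lower in U. graciosus than in U. ornatus. Those were 42.9% and 28.6% of them, beside 35.2% and 32.2% of all genes. Of 23 tested genes for other mitochondrial transport, 10 were higher and 1 lower in hybrids than in U. ornatus, and 4 higher and none lower in U. graciosus, which was 47.8% and 17.4% of them beside the same shares of all genes. MCU, the channel that lets calcium into the matrix, had 48.9, 60.5 and 82.1 CPM in hybrids, 54.5, 60.5 and 67.1 CPM in U. graciosus and 19.7, 23.9 and 29.4 CPM in U. ornatus. U. ornatus lay apart from both other lineages, with differences of 1.39 ± 0.14 for hybrids (adjusted p = 5.00e-06) and 1.34 ± 0.14 for U. graciosus (7.49e-06). GOT2, the matrix aspartate aminotransferase of the malate-aspartate shuttle, had 98.7, 151 and 197 CPM in hybrids and 46.1, 62.7 and 79.5 CPM in U. ornatus, a difference of 1.23 ± 0.20 (0.000386). MTX2, a metaxin that works beside the outer membrane sorting machinery, was lower in hybrids than in both parents. It had 17.1, 20.2 and 30.9 CPM in hybrids, 33.6, 39.2 and 42.9 CPM in U. graciosus and 28.8, 34.9 and 38.4 CPM in U. ornatus. All hybrids lay below U. graciosus, and hybrid K alone overlapped U. ornatus. The differences of MTX2 were -0.83 ± 0.13 against U. graciosus (0.00445) and -0.67 ± 0.13 against U. ornatus (0.00154). SFXN2, a sideroflexin of the inner membrane, was higher in hybrids (1.35 ± 0.28, 0.00183) and in U. graciosus (1.04 ± 0.28, 0.00976) than in U. ornatus. Against the parental mean, 3 import and 8 transport genes were called higher in hybrids, and 1 of each was called lower, the import gene being MTX2 (-0.75 ± 0.12, 0.000947), beside 9.78% of all genes higher and 6.55% lower. Among those higher were MCU (0.72 ± 0.11, 0.000892), GOT2 (0.96 ± 0.17, 0.00181) and MDH1, the cytosolic malate dehydrogenase of the same shuttle (0.86 ± 0.17, 0.00387). For the mean heat effect edgeR called none of these 44 genes, with 4 and 5 of them at an unadjusted p under 0.05, beside 17.9% of all genes, and the smallest p belonged to SFXN1 (-0.46 ± 0.13, 0.104).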

How the data were processed

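Liver RNA of 18 lizards was sequenced from directional libraries, per the labels' protocols. The authors deposited a table of whole-number read counts per gene. Trim Galore 0.6.4, STAR, Subread and DESeq2 are named in the submitters' processing notes. How multiply matching reads were handled, the strand setting and the annotation were not stated in the sources read for this work, so paralogs such as SLC25A4, SLC25A5 and SLC25A6 may share reads. Among counts of 1 to 20, 71.8% to 76.4% were even in each library. From the deposited counts, edgeR 4.0.16 (R 4.3.3) fitted its robust quasi-likelihood model to all 18 libraries with 1 mean per group, TMM factors and its default low-count filter. Differences are log2 with SE, and p-values were adjusted by Benjamini and Hochberg over the 15856 genes tested, with a call at an adjusted p under 0.05. A p in brackets after a difference is an adjusted p. P-values set a difference of group means against the variation between animals within groups, which includes counting error. The 11 comparisons were heat within each lineage and averaged over the 3 lineages, differences of heat effects, and differences between lineages averaged over temperatures. Libraries were compared first, and none were identical. Alternatives were DESeq2 1.42.0, limma 3.58.1 (voom with quality weights), RLE factors, other filters, fewer groups, single temperatures, each library left out, X, T and O left out together, and counts halved, the last pair chosen after seeing the data. The fit was tested on simulated data. Genes, lists and tests were chosen with earlier results of these data known. Values per animal are given for genes called for heat (or the 3 with the smallest p), for up to 6 called genes per direction in a lineage comparison with a mean of at least 1 CPM, and for a fixed set. The other called genes, and CPT1A, CPT2 and SFXN1, were named after their values were seen. A table of gene or protein sequences was not used here, and 2 genes are counted but not reported.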

Additional observations from a re-analysis of the deposited data

Results flagged for a closer look

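Among 38 carrier and import genes named by rule, each lineage of 6 animals was searched for a single animal far from the rest by Dixon's gap test, in 114 groups. It marked 19. The test's nominal rate of 1 group in 20 assumes independent, normally distributed values. Here CPM was not logged, the groups share the same libraries, and many genes were named for their p or difference in these data. The 19 marks thus cannot be set against chance. Of the marked animals, hybrid X was marked for 8 genes, U. ornatus O for 3 and U. graciosus T for 2, all from 40 °C, and the remaining 6 marks fell on other animals. The 6 animals of a lineage span both temperatures.

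Hybrid X was high for 6 of its 8 genes. It had SLC25A17 at 28.0 CPM, against 4.61 to 11.1 CPM in the other 5 hybrids, and SLC25A24 at 22.7 CPM, against 11.2 to 14.6 CPM in the other 5. SLC25A5 stood at 631 CPM, against 163 to 237 CPM in the other 5, and SLC25A47 at 0.804 CPM, against 0 to 0.158 CPM in the other 5. In the TOM complex, TOMM40 stood at 25.3 CPM, against 7.94 to 10.6 CPM in the other 5, and TOMM7 at 22.4 CPM, against 7.98 to 10.3 CPM in the other 5. X was low for the dicarboxylate carrier SLC25A10, with 49.3 CPM, against 145 to 169 CPM in the other 5, and for the chaperone TIMM13, with 13.3 CPM, against 21.0 to 23.9 CPM in the other 5. The summed level of hepatocyte markers in X was 34270.4 CPM, the lowest of the 18 libraries, and the part of cell makeup in these values was not tested.

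U. ornatus O was high for SLC25A28 with 56.8 CPM, against 18.3 to 29.3 CPM in the other 5 U. ornatus, for SLC25A47 with 1.26 CPM, against 0.0366 to 0.426 CPM in the other 5, and for SLC25A5 with 831 CPM, against 188 to 304 CPM in the other 5. U. graciosus T was high for SLC25A25 with 532 CPM, against 38.9 to 81.5 CPM in the other 5 U. graciosus, and for SLC25A53 with 1.33 CPM, against 0.0794 to 0.273 CPM in the other 5. The muscle ADP/ATP carrier SLC25A4 was high in U. graciosus J, with 17.9 CPM, against 0.133 to 1.503 CPM in the other 5, and in U. ornatus H, with 9.11 CPM, against 0 to 0.829 CPM in the other 5. SLC25A26 was high in U. graciosus S, with 14.1 CPM, against 5.60 to 8.37 CPM in the other 5, and SLC25A29 in hybrid B, with 162 CPM, against 50.2 to 66.0 CPM in the other 5. TIMM21 was high in U. ornatus F, with 45.9 CPM, against 25.2 to 32.7 CPM in the other 5, and TOMM40L in U. ornatus N, with 46.4 CPM, against 19.9 to 27.6 CPM in the other 5.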

How the results depend on the processing

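No paired analysis was possible because each lizard gave 1 liver at 1 temperature and every letter names an animal of a single group. No called difference changed sign under any alternative run. For the mean heat effect, which called 1 gene, DESeq2 called 4, limma's voom 3, and edgeR without a low-count filter 0. For heat in U. ornatus DESeq2 called 5 where edgeR called none. Between hybrids and U. graciosus, where edgeR called none, DESeq2 called 2 and voom 2. Against the parental mean, where edgeR called 7, DESeq2 called 11 and voom 17. Shares of all genes called are not given for DESeq2, voom, the unfiltered fit or the fits with 1 library left out. Moved counts in those fits are thus not read as results about these genes. Compared at 40 °C alone, the counts were 6 between hybrids and U. ornatus, 3 between U. graciosus and U. ornatus, and 1 against the parental mean. At 36 °C alone they were 10, 7 and 0. These comparisons came from the fit to all 18 libraries, with 3 animals of each lineage compared. Without X, T and O the counts were 0 for the mean heat effect, where the share of all genes called was 0.344% in place of 0.996%, and 12 against the parental mean, where that share was 19.5% in place of 16.3%. With 1 library left out, counts ran over 0 to 1 for the mean heat effect, 17 to 22 between hybrids and U. ornatus, 11 to 20 between U. graciosus and U. ornatus, and 5 to 11 against the parental mean, highest there without hybrid X, and 0 for the others. The causes of moved counts were not tested. Halving the counts, since most low counts were even, moved no count of calls by over 1.5 times. With 3 animals a group, small differences may be missed, and genes under 1 CPM rest on few counts.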

Other observations

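EdgeR called 25 of the 65 tested genes in at least 1 of the 11 comparisons and 40 in none, although those 40 passed an unadjusted p under 0.05 in 38 of 440 tests. The same counts were not made over all genes, of which 35.2% were called between hybrids and U. ornatus alone. Neither count is thus read as a result about these genes. DESeq2 called 7 of the 40 and voom 6 in some comparison. The 21 of them with no values given so far are described here by their lowest, median and highest level in 6 animals of each lineage. The levels of all 21 overlapped between each pair of lineages, which choosing genes without a call made likely in advance. Among carriers of nitrogen compounds, SLC25A22, a glutamate carrier, had 59.1, 77.1 and 83.4 CPM in hybrids, 66.8, 77.3 and 112 CPM in U. graciosus and 74.9, 88.7 and 122 CPM in U. ornatus. SLC25A38, which brings in the glycine that heme synthesis needs, had 5.62, 7.28 and 8.65 CPM in hybrids, 5.47, 7.65 and 11.2 CPM in U. graciosus and 5.00, 7.99 and 11.3 CPM in U. ornatus. Hybrid X had the lowest SLC25A22 of the 18 animals. SLC25A12, the aspartate and glutamate carrier of brain and muscle in mammals, had 4.04, 6.58 and 9.20 CPM in hybrids, 2.27, 5.23 and 7.24 CPM in U. graciosus and 2.29, 3.84 and 5.85 CPM in U. ornatus, and its difference between hybrids and U. ornatus was 0.71 ± 0.30 (adjusted p = 0.0734 by edgeR), the smallest adjusted p among the 21. Voom called it there, at an adjusted p of 0.0497.

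Among carriers of metals and cofactors, SLC25A37, the iron importer mitoferrin 1 of developing red cells, had 40.7, 52.3 and 71.7 CPM in hybrids, 50.6, 71.5 and 111 CPM in U. graciosus and 48.8, 60.1 and 76.9 CPM in U. ornatus, whereas SLC25A28, the other mitoferrin, was called higher in hybrids and in U. graciosus than in U. ornatus. SLC25A39, a glutathione importer, had 19.4, 28.9 and 30.4 CPM in hybrids, 12.6, 26.0 and 29.3 CPM in U. graciosus and 15.0, 20.9 and 22.6 CPM in U. ornatus. SLC25A42, a coenzyme A carrier, had 12.9, 35.9 and 44.2 CPM in hybrids, 16.9, 27.4 and 40.6 CPM in U. graciosus and 22.2, 31.7 and 55.6 CPM in U. ornatus, with X the lowest, and a mean heat effect of -0.48 ± 0.20 (adjusted p = 0.227). SLC25A23, an ATP-Mg carrier, had 16.5, 51.5 and 74.8 CPM in hybrids, 34.6, 46.5 and 77.2 CPM in U. graciosus and 22.4, 38.5 and 70.4 CPM in U. ornatus, again with X the lowest, and a mean heat effect of -0.56 ± 0.21 (0.186). In the import machinery TIMM9 and TIMM10 together form the chaperone that escorts carriers to TIM22. TIMM9 had 4.31, 7.17 and 17.2 CPM in hybrids, 3.73, 5.61 and 7.86 CPM in U. graciosus and 5.44, 7.23 and 10.4 CPM in U. ornatus. TIMM10 had 9.17, 12.5 and 18.6 CPM in hybrids, 8.40, 11.4 and 16.0 CPM in U. graciosus and 7.77, 9.82 and 14.9 CPM in U. ornatus. TIMM17A, a subunit of the TIM23 channel, had 10.03, 12.96 and 41.0 CPM in hybrids, 6.50, 10.8 and 20.7 CPM in U. graciosus and 6.52, 8.82 and 16.8 CPM in U. ornatus, with hybrid X the highest of the 18 at 41.0 CPM. TOMM5, a small TOM subunit, had 8.45, 18.3 and 20.1 CPM in hybrids, 9.80, 17.5 and 24.9 CPM in U. graciosus and 12.7, 20.4 and 36.0 CPM in U. ornatus, highest in O.

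SLC25A32, a folate and FAD carrier, had 9.37, 10.1 and 11.2 CPM in hybrids, 6.96, 10.4 and 14.3 CPM in U. graciosus and 10.3, 11.8 and 17.4 CPM in U. ornatus. SLC25A36, a pyrimidine nucleotide carrier, had 11.03, 12.5 and 15.9 CPM in hybrids, 7.20, 11.7 and 16.2 CPM in U. graciosus and 12.1, 15.1 and 16.7 CPM in U. ornatus. SLC25A44, which imports branched-chain amino acids, had 5.24, 7.44 and 8.86 CPM in hybrids, 3.33, 7.07 and 8.16 CPM in U. graciosus and 5.02, 6.03 and 10.02 CPM in U. ornatus. In U. graciosus T, SLC25A36 and SLC25A44 were at their lowest of the 18 animals. SLC25A30, a relative of the uncoupling proteins, had 18.6, 20.9 and 35.1 CPM in hybrids, 13.2, 18.5 and 23.4 CPM in U. graciosus and 15.3, 19.1 and 22.8 CPM in U. ornatus. SLC25A34 had 6.99, 18.9 and 27.2 CPM in hybrids, 5.70, 16.2 and 33.4 CPM in U. graciosus and 4.70, 8.63 and 16.5 CPM in U. ornatus, and SLC25A43 had 4.04, 5.99 and 11.1 CPM in hybrids, 5.43, 6.67 and 9.63 CPM in U. graciosus and 5.94, 6.86 and 7.49 CPM in U. ornatus. X was the highest of the 18 for SLC25A30 and SLC25A43, and U. graciosus J for SLC25A34. TIMM10B and TIMM29 are both parts of the TIM22 complex. TIMM10B had 4.28, 4.81 and 5.80 CPM in hybrids, 4.43, 4.95 and 5.19 CPM in U. graciosus and 2.76, 4.65 and 12.6 CPM in U. ornatus, and TIMM29 had 3.88, 4.11 and 4.26 CPM in hybrids, 2.33, 4.23 and 5.40 CPM in U. graciosus and 1.70, 2.75 and 4.17 CPM in U. ornatus. O held the highest TIMM10B. TIMM8B, a small chaperone, had 5.45, 6.85 and 8.36 CPM in hybrids, 4.27, 5.67 and 9.63 CPM in U. graciosus and 4.56, 6.39 and 7.48 CPM in U. ornatus. TOMM34, a cytosolic helper of import, had 32.7, 36.7 and 69.8 CPM in hybrids, 30.6, 39.0 and 46.1 CPM in U. graciosus and 27.9, 35.8 and 39.9 CPM in U. ornatus, with X the highest.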
